A study of Gallus gallus with 8 samples.

Results

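The sites described here are the accessible regions of chicken chromosome Z that lie outside a block around the male hypermethylated (MHM) region and outside the distal end of the chromosome. Accessible sites were taken from peak lists of ATAC-seq, an assay that marks open chromatin by where a transposase, Tn5, can place adapters. A peak belonged to the set where its summit lay on chromosome Z below 25 Mb or from 35 Mb to below 73 Mb, which together are 63 Mb of sequence, called the Z stretch below. The rule held 1810 of the 53397 peaks of all 4 lists (3.39%). Of these, 258 were in the list of HD3 erythroblasts (HD3), 497 in that of embryonic red blood cells (eRBC), 327 in that of adult red blood cells (aRBC) and 728 in that of fibroblasts. These were 79.4% of all chromosome Z peaks in HD3, 69.03% in eRBC, 48.95% in aRBC and 37.996% in fibroblasts. The rule uses position alone, but it was chosen with earlier results of these data known. Chromosomes 4 and 5, autosomes of similar size, served for comparison with 6604 peaks in the 4 lists.

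In birds the male carries a pair of Z chromosomes and the female carries a Z and a W. Birds are known for incomplete dosage compensation: no chromosome-wide silencing of a Z is known, and many Z genes are expressed at a higher level in males. The MHM region is the known exception on this chromosome. Its DNA is hypermethylated in males, while in females it is transcribed into noncoding RNA and lies in chromatin rich in acetylated histone H4.

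The 4 groups had 2 samples each and all were labelled wild type. HD3 is a line of virus-transformed chicken erythroblasts, that is, of red blood cell precursors, and was grown in serum-containing medium, as were the primary fibroblasts. Embryonic red blood cells were primary cells of embryonic day 10, and adult red blood cells came from hens 28 to 38 weeks old. The labels state that lane 2 of one aRBC sample was run on a Novaseq instrument. Chicken red blood cells keep their nucleus. The tissue that gave the fibroblasts, the sex of the fibroblast, HD3 and embryonic donors and any pooling of animals are not given in the labels. No gene was assigned to a peak here, so the labelled cell types could not be checked against marker genes, and no sequence is printed.

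Each cell type has 1 deposited list, and whether it holds both samples or 1 is not stated. No value below therefore has a replicate error, no test across samples was possible and no p-value is given. Read depth is unknown. All intervals are 95% intervals for counting error alone. Neighbouring peaks are not independent, so an interval understates the uncertainty about a cell type. The 4 lists held between 11395 and 17681 peaks. The names of the peaks carry running numbers with gaps, and the share of missing numbers differed between lists, as given below beside the densities. Chromosome W held 37 peaks in HD3, 23 in eRBC, 59 in aRBC and 27 in fibroblasts. The part of the number of Z copies in any value below was not tested.

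HD3 had few accessible sites on the Z stretch, both against the autosomes and against the other cell types. The HD3 list had 4.10 peaks per Mb on the Z stretch (95% exact Poisson interval 3.61 to 4.63) and 11.6 per Mb (11.02 to 12.1) on chromosomes 4 and 5, a ratio of 0.354 (95% exact interval 0.310 to 0.404). eRBC had 7.89 peaks per Mb (7.21 to 8.61) on the Z stretch and 10.7 (10.1 to 11.2) on chromosomes 4 and 5, a ratio of 0.740 (0.668 to 0.819). In aRBC the densities were 5.19 (4.64 to 5.78) on the Z stretch and 7.84 (7.40 to 8.30) on chromosomes 4 and 5, a ratio of 0.662 (0.584 to 0.749). All 4 lists were thus less dense on the Z stretch, and the smallest deficit was that of fibroblasts. They had 11.6 peaks per Mb (10.7 to 12.4) on the Z stretch and 13.6 (13.06 to 14.2) on chromosomes 4 and 5, a ratio of 0.847 (0.778 to 0.922).

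**Figure D1:**
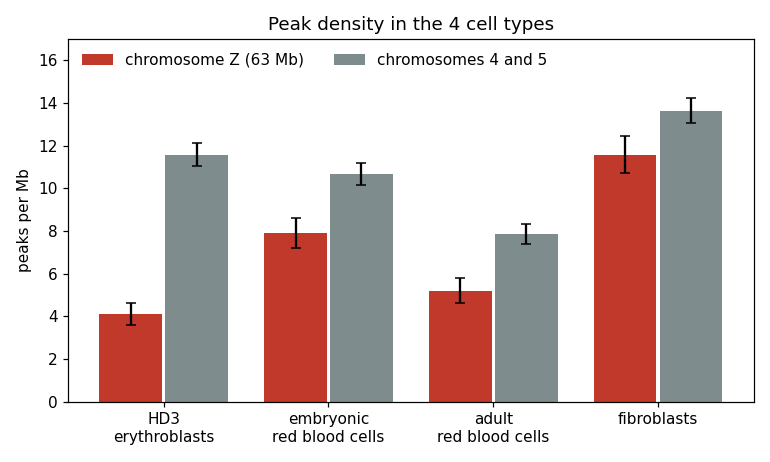
Peaks per Mb on the Z stretch (red, left) and on chromosomes 4 and 5 (grey, right) in each cell type, with 95% exact Poisson intervals as error bars. The Z bar of HD3 stands at 4.10 peaks per Mb beside 11.6 on the autosomes, the widest gap of the 4 lists.

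Since the lists differ in length, the balance of Z against autosomal peaks was also compared between lists. The odds that a peak of the Z stretch or of chromosomes 4 and 5 lay on the Z stretch were 0.418 times as high in HD3 as in fibroblasts (95% exact conditional interval 0.356 to 0.490). The odds ratio to fibroblasts was 0.781 (0.671 to 0.909) in aRBC and 0.873 (0.764 to 0.998) in eRBC. The eRBC value turned to 1.04 when chromosomes 1 to 5 stood in for 4 and 5. Against HD3, the odds were 2.09 times as high (1.77 to 2.47) in eRBC and 1.87 times as high (1.56 to 2.24) in aRBC. The odds ratio of aRBC to eRBC was 0.895 (0.761 to 1.05), whose interval includes 1.

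The HD3 deficit ran through both pieces of the Z stretch. Below 25 Mb the HD3 list had 4.56 peaks per Mb, 0.394 times (0.323 to 0.477) its density on chromosomes 4 and 5. From 35 to 73 Mb it had 3.79 per Mb, a ratio of 0.328 (0.275 to 0.389). The other lists were also nearer to the autosomes below 25 Mb. Their ratios there were 0.803 (0.693 to 0.927) in eRBC, 0.775 (0.651 to 0.919) in aRBC and 0.965 (0.856 to 1.08) in fibroblasts. From 35 to 73 Mb the ratio was 0.699 (0.614 to 0.793) in eRBC, 0.587 (0.498 to 0.689) in aRBC and 0.770 (0.690 to 0.857) in fibroblasts.

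Set beside every other chromosome with peaks, each taken whole and counted once whatever its size, the Z stretch was at or near the lowest density in each list. In HD3 all 33 other chromosomes were denser, the nearest being chromosome W with 5.43 peaks per Mb, and their median was 14.4 per Mb. In aRBC all 33 were denser as well, the nearest being chromosome 2 with 6.66 per Mb. eRBC had a lower density on 2 chromosomes, W with 3.38 and 2 with 7.83 peaks per Mb. In fibroblasts W alone was lower, with 3.96 per Mb. The Z stretch leaves out the block around the MHM region and the distal end. It held 48.95% of all chromosome Z peaks in aRBC and 37.996% in fibroblasts, so this is no ranking of chromosome Z as a whole.

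The autosomes chosen matter for the size of the ratios, as chromosome 5 was denser than chromosome 4 in every list. Chromosome 4 had 11.0 peaks per Mb in HD3, 9.05 in eRBC, 6.75 in aRBC and 12.2 in fibroblasts. Chromosome 5 had 12.5, 13.1, 9.51 and 15.8 in the same order.

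The HD3 deficit was similar when missing running numbers were counted in. On the Z stretch 45.1% of the HD3 numbers were missing (95% Clopper-Pearson interval 40.5% to 49.7%), against 40.2% (38.4% to 42.0%) on chromosomes 4 and 5. In aRBC the missing share was 16.8% (13.2% to 20.9%) on the Z stretch and 26.2% (24.1% to 28.4%) on chromosomes 4 and 5. eRBC lacked 10.3% on the Z stretch and 13.9% on chromosomes 4 and 5, and fibroblasts 6.67% and 7.37%. With all numbers counted, missing ones included, the density ratio of the Z stretch to chromosomes 4 and 5 was 0.386 in HD3, 0.710 in eRBC, 0.587 in aRBC and 0.841 in fibroblasts. Those counts were chosen as an alternative after the data were seen.

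Along the chromosome, most Z windows held few HD3 peaks. Over the 63 windows of 1 Mb on the Z stretch the HD3 list had a median of 4 peaks per window, with quartiles of 3 and 5, against a median of 11 (7.25 and 16) over the 150 full windows of chromosomes 4 and 5. The variance of the HD3 window counts was 1.51 times their mean on the Z stretch and 3.46 times on chromosomes 4 and 5, a ratio that also depends on the mean count. The 6 densest Z windows held 21.3% of HD3 members, 22.7% of eRBC, 25.1% of aRBC and 19.4% of fibroblast members. eRBC had a median of 8 peaks per window on the Z stretch (quartiles 4 and 11) and 8.5 (4 and 17) on the autosomes. aRBC had 5 (2.5 and 7) on the Z stretch and 6 (3 and 11) on the autosomes, and fibroblasts 12 (8 and 14.5) and 14 (7.25 and 18). The medians of eRBC and aRBC on the Z stretch were thus closer to those of the autosomes than their mean densities were, and the upper quartiles were farther apart.

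**Figure D2:**
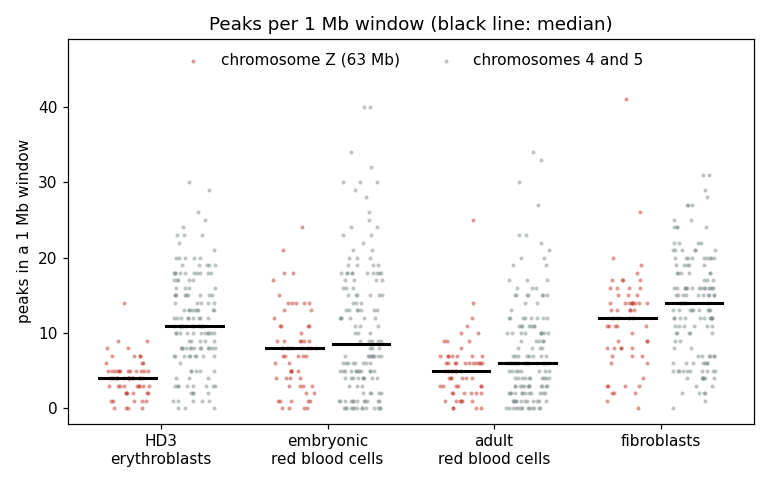
Peaks in each 1 Mb window of the Z stretch (red, left, 63 windows) and of chromosomes 4 and 5 (grey, right, 150 windows) in each cell type, with the median as a black line. HD3 windows on the Z stretch hold at most 14 peaks, while those on the autosomes reach 30.

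In 34 of the 63 Z windows (54.0%) the HD3 list had fewer peaks than each of the other 3, compared with 21 of 150 autosomal windows (14.0%). It had more than each of the others in 2 Z windows (3.17%) and 43 autosomal windows (28.7%). Fibroblasts had the most peaks of the 4 lists in 46 Z windows (73.02%) and in 71 autosomal windows (47.3%). The densest Z window of HD3 was that from 7 to 8 Mb with 14 peaks. It was that from 13 to 14 Mb in eRBC with 24 peaks, and that from 8 to 9 Mb in aRBC with 25 peaks and in fibroblasts with 41. In that last window HD3 had 5 peaks and eRBC 18. Every Z window had a peak in at least 1 list. Windows with no peak numbered 4 of 63 (6.35%) in each of the erythroid lists and 1 (1.59%) in fibroblasts. Of the 150 autosomal windows, 3 (2%) had no peak in HD3, 14 (9.33%) in eRBC, 13 (8.67%) in aRBC and 1 (0.667%) in fibroblasts.

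The lists followed one another along the Z stretch to unequal degrees. As a description over the 63 windows, Spearman's rho was 0.745 for eRBC and fibroblasts, 0.737 for eRBC and aRBC and 0.659 for aRBC and fibroblasts. With HD3 it was 0.477 for aRBC, 0.412 for eRBC and 0.388 for fibroblasts. Over the 150 autosomal windows the HD3 values were 0.687 for aRBC, 0.749 for eRBC and 0.637 for fibroblasts. The autosomal rho was also higher than that of the Z stretch for eRBC and aRBC, at 0.905, and for aRBC and fibroblasts, at 0.723, while it was 0.745 for eRBC and fibroblasts. The windows have the same sequence in all lists, and HD3 counts per Z window are small.

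Neighbouring summits lay far apart in HD3 on the Z stretch. The median distance from a summit to the next was 130 kb there and 38.0 kb on chromosomes 4 and 5. In eRBC the medians were 31.3 kb on the Z stretch and 18.9 kb on the autosomes, in aRBC 75.4 kb and 24.5 kb, and in fibroblasts 41.9 kb and 34.0 kb. The next summit lay within 10 kb for 11.7% of HD3 distances on the Z stretch (95% Clopper-Pearson interval 8.05% to 16.3%), against 22.1% (20.1% to 24.1%) on the autosomes. In eRBC the shares were 31.1% on the Z stretch and 37.5% on the autosomes, in aRBC 24.6% and 34.8%, and in fibroblasts 23.7% and 25.01%.

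To ask which cell types shared a site, overlapping peaks of the 4 lists were merged into union regions, 1082 of which held a member and 3772 of which lay on chromosomes 4 and 5. The number of lists per region was similar in both places. A single list had a peak in 65.8% of Z regions (62.9% to 68.6%) and 62.01% of autosomal regions (60.4% to 63.6%). All 4 lists had one in 115 Z regions, 10.6% (8.85% to 12.6%), and in 447 autosomal regions, 11.9% (10.8% to 12.9%). Between these ends, 144 Z regions (13.3%) had a peak in 2 lists and 111 (10.3%) in 3, against 15.3% and 10.8% of autosomal regions.

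The composition of these classes differed, in that patterns with an HD3 peak were mostly scarcer on the Z stretch. Regions of HD3 alone made up 4.16% of Z regions (3.05% to 5.53%) and 15.7% of autosomal regions (14.5% to 16.9%). Regions of all 3 erythroid lists without fibroblasts were 1.76% on the Z stretch (1.06% to 2.73%) and 5.67% on the autosomes (4.96% to 6.46%). HD3 and eRBC alone shared 2.03% of Z regions and 4.48% of autosomal regions, and HD3 and fibroblasts alone 2.03% and 4.06%. No Z region had peaks in HD3 and aRBC only, 0 of 1082. That allows a share of up to 0.277% by the limit of 3 counts and up to 0.340% by the Clopper-Pearson interval. The autosomal share was 0.424% (0.243% to 0.688%), so the Clopper-Pearson intervals overlap. Exceptions were regions of HD3, eRBC and fibroblasts, with 2.96% on the Z stretch and 3.21% on the autosomes, those of all 4 lists given above, and those of HD3, aRBC and fibroblasts, with 2 Z regions (0.185%) and 0.133% of autosomal ones.

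Patterns without HD3 but with fibroblasts took larger shares of the Z regions, of which fewer had an HD3 peak. Regions of eRBC, aRBC and fibroblasts were 5.36% of Z regions (4.10% to 6.87%) and 1.83% of autosomal regions (1.43% to 2.31%). Those of eRBC and fibroblasts were 3.42% (2.42% to 4.68%) on the Z stretch and 0.875% (0.603% to 1.23%) on the autosomes. Those of aRBC and fibroblasts were 2.22% (1.43% to 3.28%) on the Z stretch and 1.27% (0.940% to 1.68%) on the autosomes, with overlapping intervals. Regions of fibroblasts alone were 39.6% of Z regions (36.6% to 42.5%) and 30.7% of autosomal ones (29.2% to 32.2%). eRBC alone held 16.0% of Z regions (13.9% to 18.3%) and 10.05% of autosomal ones (9.11% to 11.1%). The shares of aRBC alone, 6.10% and 5.59%, and of eRBC and aRBC together, 3.60% and 4.19%, had overlapping intervals as well.

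Shares sum to a whole, so the same patterns were also counted per Mb, a measure added after the data were seen. Regions of eRBC, aRBC and fibroblasts numbered 0.921 per Mb on the Z stretch and 0.457 on the autosomes, a ratio of 2.02 (1.40 to 2.90). Those of eRBC and fibroblasts numbered 0.587 and 0.218 per Mb, a ratio of 2.69 (1.64 to 4.44). Both patterns, which by definition lack an HD3 peak, were thus denser on the Z stretch. For fibroblasts alone the direction turned, with 6.79 regions per Mb on the Z stretch and 7.66 on the autosomes, a ratio of 0.887 (0.792 to 0.992). The ratio was 1.09 (0.909 to 1.31) for eRBC alone and 1.20 (0.703 to 2.00) for aRBC and fibroblasts, both with intervals that include 1. HD3 alone had 0.714 regions per Mb on the Z stretch and 3.92 on the autosomes, a ratio of 0.182 (0.132 to 0.247). Where HD3 had a peak as well, the ratio was 0.617 (0.498 to 0.759) for regions of all 4 lists. It was 0.634 (0.416 to 0.943) for those of HD3, eRBC and fibroblasts. The higher ratios therefore hold for regions without an HD3 peak. With or without an HD3 peak, regions of eRBC, aRBC and fibroblasts numbered 173 over the 63 Mb of the Z stretch. On the autosomes they numbered 516 over 151 Mb, so per Mb such regions were scarcer on the Z stretch. No interval was taken for this comparison. With or without an HD3 peak, eRBC peaks overlapped by a fibroblast peak numbered 242 over the 63 Mb of the Z stretch. On the autosomes they numbered 675 over 151 Mb, so per Mb these peaks were scarcer on the Z stretch too, again without an interval.

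**Figure D3:**
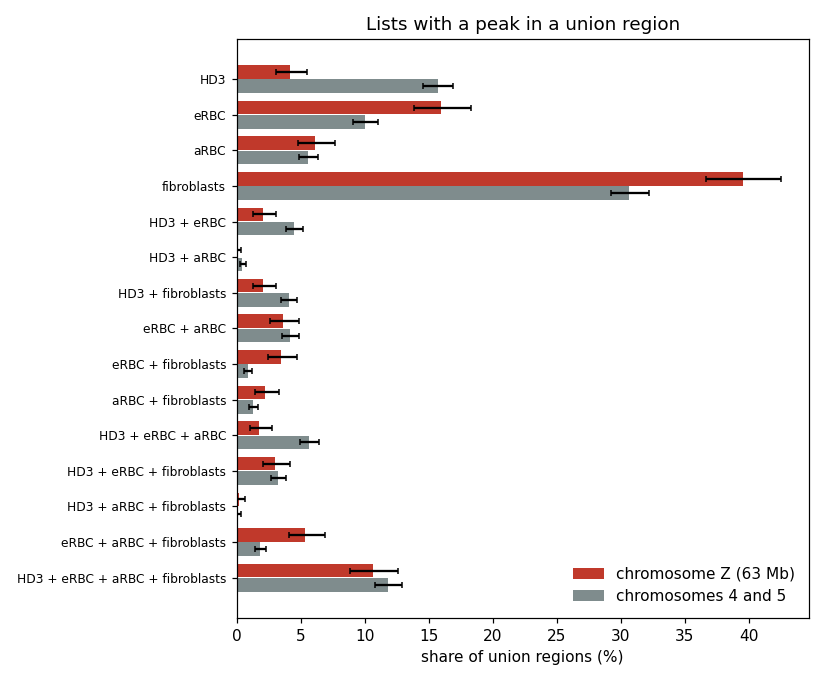
Share of union regions with each of the 15 combinations of lists on the Z stretch (red, upper bar) and on chromosomes 4 and 5 (grey, lower bar), with 95% Clopper-Pearson intervals. HD3 alone stands at 4.16% on the Z stretch beside 15.7%, and eRBC and aRBC with fibroblasts at 5.36% beside 1.83%.

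The share of patterns depends on the density of each list. Presence was therefore also counted only at regions where the other 3 lists all had a peak. This count still depends on how dense the named list itself is in each place. Of 173 Z regions with peaks in eRBC, aRBC and fibroblasts, 115 had an HD3 peak, 66.5% (58.9% to 73.5%). On chromosomes 4 and 5 it was 447 of 516, 86.6% (83.4% to 89.4%), which gives an odds ratio of 0.307 (95% exact conditional interval 0.200 to 0.470). For fibroblasts the share was higher on the Z stretch. Of 134 Z regions of all 3 erythroid lists, 85.8% (78.7% to 91.2%) had a fibroblast peak, against 67.6% (63.9% to 71.2%) of 661 on the autosomes, an odds ratio of 2.89 (1.72 to 5.12). The HD3 and fibroblast counts have the same numerators, 115 and 447. The fibroblast count takes only regions with an HD3 peak, so it is not independent of the scarcity of HD3 peaks on the Z stretch. For eRBC the shares were 98.3% of 117 Z regions and 98.9% of 452 autosomal ones. For aRBC they were 78.2% of 147 (70.7% to 84.6%) and 78.7% of 568 (75.1% to 81.996%), with an odds ratio of 0.973 (0.617 to 1.56). For eRBC and aRBC a difference was not detectable at this number of regions, and the eRBC odds ratio of 0.644 had an interval of 0.104 to 6.84.

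**Figure D4:**
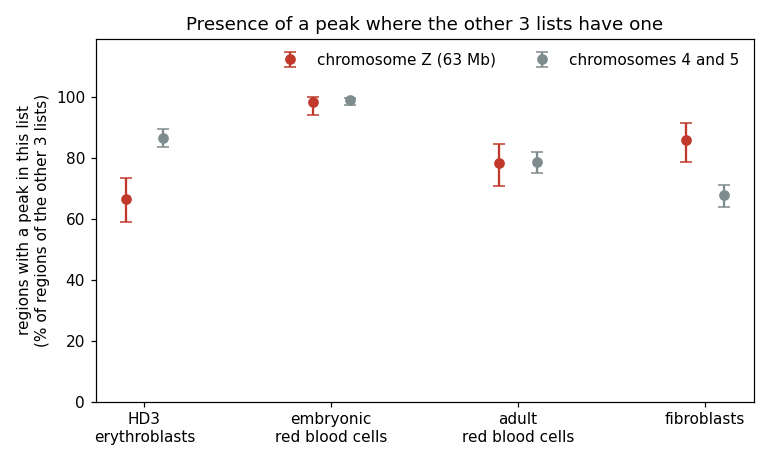
Percentage of regions with a peak in the named list among those where the other 3 lists all have one, on the Z stretch (red, left) and on chromosomes 4 and 5 (grey, right), with 95% Clopper-Pearson intervals. HD3 stands at 66.5% on the Z stretch and 86.6% on the autosomes, fibroblasts at 85.8% and 67.6%.

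Regions common to eRBC and aRBC also held an HD3 peak less often on the Z stretch. On the Z stretch 134 of 231 such regions also had an HD3 peak, 58.01% (51.4% to 64.5%), and on the autosomes 661 of 888, 74.4% (71.4% to 77.3%). These regions include those of the preceding count.

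HD3 members were overlapped by other lists more often than autosomal HD3 peaks. Of the 258 HD3 members, 213 (82.6%, 77.4% to 87.0%) were overlapped by a peak of another list, against 66.1% (63.8% to 68.3%) on chromosomes 4 and 5 and 68.2% in the whole list. Fibroblast peaks overlapped 65.5% of HD3 members (59.4% to 71.3%) and 41.5% (39.2% to 43.9%) of autosomal HD3 peaks. eRBC peaks overlapped 73.3% (67.4% to 78.6%) and 56.0% (53.6% to 58.3%), and aRBC peaks 52.3% (46.04% to 58.6%) and 39.8% (37.5% to 42.1%).

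eRBC members differed in the other direction, with 324 of 497 (65.2%, 60.8% to 69.4%) overlapped by another list, against 76.5% (74.3% to 78.5%) on the autosomes and 75.5% in the whole list. HD3 peaks overlapped 38.03% of eRBC members (33.7% to 42.5%) and 59.4% (57.0% to 61.8%) of autosomal eRBC peaks. aRBC peaks overlapped 46.5% (42.03% to 51.0%) and 56.1% (53.6% to 58.5%), and fibroblast peaks 48.7% (44.2% to 53.2%) and 41.9% (39.5% to 44.4%). For aRBC members the share overlapped by any other list was 261 of 327, 79.8% (75.1% to 84.0%), against 82.2% (79.9% to 84.3%) on the autosomes and 75.9% in the whole list. HD3 peaks overlapped 41.0% of aRBC members (35.6% to 46.5%) and 57.5% (54.6% to 60.3%) of autosomal aRBC peaks. Fibroblast peaks overlapped 60.9% (55.3% to 66.2%) and 48.02% (45.1% to 50.9%). Fibroblast members were overlapped in 300 of 728, 41.2% (37.6% to 44.9%), against 43.9% (41.7% to 46.04%) on the autosomes and 42.6% in the whole list.

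Strength was read as the percentile of a peak's fold enrichment, which the authors' peak caller gives as pileup over background, within its own list, with 100 for the strongest. The median rank of HD3 members was below that of autosomal HD3 peaks, and those of eRBC, aRBC and fibroblast members were above theirs, but the intervals of the medians overlapped in all 4 lists. The median HD3 percentile was 43.8 on the Z stretch (95% binomial interval of the median 36.9 to 51.0) and 52.4 (49.9 to 55.1) on chromosomes 4 and 5. In eRBC the medians were 56.1 (52.6 to 63.3) on the Z stretch and 51.3 (48.4 to 53.9) on the autosomes. In aRBC they were 64.5 (60.1 to 67.5) and 57.7 (54.3 to 60.4), and in fibroblasts 56.8 (54.3 to 59.8) and 54.3 (51.6 to 55.9).

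The ends of the lists were counted next, where the strongest 10% hold 10.0% of all peaks of each list by construction. Of HD3 members 19 (7.36%, 4.49% to 11.3%) were among the strongest 10%, against 11.6% (10.2% to 13.2%) on the autosomes. eRBC members were there in 77 cases (15.5%, 12.4% to 19.0%), against 11.1% (9.62% to 12.7%), and aRBC members in 60 (18.3%, 14.3% to 23.0%), against 14.9% (12.95% to 17.1%). Fibroblast members numbered 84 there (11.5%, 9.31% to 14.1%), against 9.70% (8.46% to 11.1%). The weakest 10% held fewer members than autosomal peaks by share in all 4 lists, HD3 included, but only in aRBC were the intervals apart. HD3 members were there in 19 cases (7.36%, 4.49% to 11.3%), against 10.02% (8.65% to 11.5%) of autosomal HD3 peaks. It held 6.44% of eRBC members (4.45% to 8.97%), against 9.99% (8.57% to 11.6%), and 5 aRBC members (1.53%, 0.498% to 3.53%), against 8.02% (6.53% to 9.71%). In fibroblasts the shares were 2.47% (1.47% to 3.88%) of members and 4.46% (3.61% to 5.45%) of autosomal peaks.

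**Figure D5:**
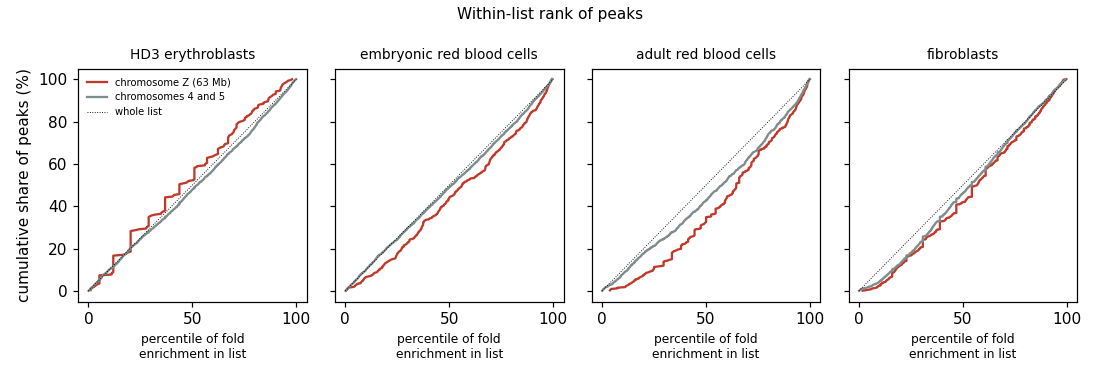
Cumulative share of peaks by percentile of fold enrichment within the list, on the Z stretch (red) and on chromosomes 4 and 5 (grey), with the whole list as a dotted diagonal. The red curve lies mostly above the grey one in HD3, though not at the weak end, with medians of 43.8 and 52.4, and mostly below it in aRBC, with medians of 64.5 and 57.7.

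The higher median ranks of eRBC and aRBC members held for fold enrichment and not for the other measure of strength. By the caller's −log10 p the median percentile was 51.8 (49.3 to 56.7) on the Z stretch and 57.5 (54.3 to 60.5) on the autosomes in aRBC. In eRBC it was 50.4 (46.3 to 54.6) and 52.1 (49.6 to 55.4). The sign of the difference thus turned in both lists. In HD3 it was 38.9 (33.1 to 45.2) on the Z stretch and 52.3 (49.4 to 54.6) on the autosomes, and in fibroblasts 49.8 and 49.2. The strongest 10% by −log10 p held 2.71% of HD3 members (1.10% to 5.51%), against 11.4% (9.94% to 12.97%) of autosomal HD3 peaks, and 8.26% of aRBC members (5.51% to 11.8%), against 14.7% (12.7% to 16.8%). For eRBC the shares were 13.1% (10.2% to 16.4%) and 12.5% (10.9% to 14.2%). Fibroblasts had 8.93% (6.96% to 11.2%) and 8.20% (7.05% to 9.47%), so both were slightly higher on the Z stretch, with overlapping intervals.

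Sites open in all 4 cell types were compared separately, since there the set of sites is held fixed across lists. At these regions HD3 peaks had a median percentile of 51.0 on the Z stretch (36.9 to 63.9, 116 peaks) and 66.2 (61.1 to 69.6, 463 peaks) on chromosomes 4 and 5. The intervals of these HD3 medians overlap. The medians of the other lists were higher on the Z stretch. eRBC peaks had medians of 88.5 (87.2 to 93.0) on the Z stretch and 82.7 (79.9 to 84.8) on the autosomes, aRBC peaks 86.6 (79.5 to 89.9) and 81.3 (79.01 to 83.8), and fibroblast peaks 81.3 (70.8 to 87.02) and 72.2 (67.7 to 76.5), with overlapping intervals in the last pair and in that of aRBC. HD3 had the lowest percentile of the 4 lists in 88 of the 115 Z regions (76.5%, 67.7% to 83.9%) and in 201 of 447 autosomal regions (44.97%, 40.3% to 49.7%). These shares sum to the whole, so a larger HD3 share leaves less for every other list. Fibroblasts had the lowest in 12.2% of Z regions (6.82% to 19.6%) and 30.0% of autosomal ones (25.8% to 34.5%). The shares of eRBC, 4.35% and 10.07%, and of aRBC, 6.96% and 14.99%, were smaller on the Z stretch as well. Percentiles sit on each list's own scale, and they compare ranks, not amounts of open chromatin. At these regions only fold enrichment was ranked, and −log10 p was not.

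Peaks found in a single list had higher median ranks of fold enrichment on the Z stretch in aRBC and eRBC. Ranks by −log10 p were not taken for these peaks. aRBC peaks of that list alone had a median percentile of 44.5 on the Z stretch (38.0 to 62.9, 66 peaks) and 22.9 (19.9 to 28.8, 211 peaks) on the autosomes. eRBC ones had 33.5 (28.1 to 36.6, 173 peaks) and 21.3 (17.8 to 25.5, 379 peaks). For HD3 the medians were 36.2 (20.3 to 62.3, 45 peaks) and 47.3 (43.8 to 53.8, 592 peaks), with the autosomal interval inside that of the Z stretch, and for fibroblasts 46.8 in both places.

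Peak width separated the Z stretch from the autosomes little. The median width of HD3 peaks was 171 bp on the Z stretch (159 to 182) and 174 bp (170 to 178) on chromosomes 4 and 5. eRBC peaks had 239 bp (225 to 256) and 242 bp (233 to 254), aRBC peaks 206 bp (191 to 220) and 218 bp (211 to 228), and fibroblast peaks 149.5 bp (142 to 156) and 145 bp (141 to 148). The intervals overlapped in all 4 lists. The widest member had 1043 bp in eRBC, 714 bp in aRBC, 595 bp in fibroblasts and 549 bp in HD3. At regions of all 4 lists fibroblast peaks were wider on the Z stretch, with 226.5 bp (202 to 257) against 187 bp (178 to 200) on the autosomes, while HD3 peaks had 195 bp (160 to 224) and 227 bp (216 to 244), whose intervals overlap. Peaks covered 0.771 kb per Mb of the Z stretch in HD3 and 2.25 kb per Mb of the autosomes. The covered lengths were 2.16 and 3.003 kb per Mb in eRBC, 1.18 and 2.03 in aRBC, and 2.03 and 2.36 in fibroblasts.

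Single members were named by a fixed rule on ranks, with positions counted from 1 in the build GRCg6a, the build named in the submitters' processing notes. Among regions of all 4 lists, that whose worst rank over the lists was best lay on chromosome Z from 61443029 to 61443321 in HD3, with a fold enrichment of 18.03 and rank 529. The same region had 15.8 and rank 782 in eRBC, 27.7 and rank 146 in aRBC, and 10.6 and rank 323 in fibroblasts. Its summits fell into 2 pairs, with 61443213 and 61443211 in HD3 and fibroblasts and 61443130 and 61443127 in eRBC and aRBC.

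The next region ran from 65302040 to 65302273 in HD3, and the 4 summits lay at 65302125 or 65302126. Its fold enrichment was 16.2 in HD3, 19.8 in eRBC, 21.7 in aRBC and 8.80 in fibroblasts, at percentiles of 92.5, 98.7, 95.5 and 96.2 in this order. Another ran from 47700520 to 47700783 in HD3, with 14.7 there, 16.9 in eRBC, 27.3 in aRBC and 8.03 in fibroblasts. HD3 gave the worst rank in these last regions, at 884 and 1323.

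Of the 19 Z regions of the 3 erythroid lists without a fibroblast peak, the first by rank ran from 68934281 to 68934579 in eRBC at the 93.5th percentile of fold enrichment, while it stood at 62.3 in HD3 and 67.5 in aRBC. The second, from 12841543 to 12841815 in eRBC, stood at 58.4 in HD3, 76.4 in eRBC and 56.9 in aRBC. The next, from 61202616 to 61202833 in eRBC, stood at 86.3, 91.7 and 54.6 in the same order.

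Regions of eRBC and aRBC alone numbered 39. The first ran from 56385265 to 56385582 in eRBC, with a fold enrichment of 18.5 there (percentile 97.6) and 15.8 in aRBC (87.9). The second was broad, from 22214037 to 22214812 in eRBC, 776 bp wide there and 520 bp in aRBC, at percentiles of 95.7 and 80.2. The next ran from 24743018 to 24743328 in eRBC, at percentiles of 82.1 and 78.03.

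The strongest member found in a single list stood at a percentile of 97.9 in HD3, 95.1 in eRBC, 98.9 in aRBC and 96.6 in fibroblasts. That of HD3 alone ran from 43065854 to 43065993 with a fold enrichment of 20.7 and rank 246, which was also the highest fold enrichment of any HD3 member. It was followed by 72901652 to 72901916 with 16.5 and 14944413 to 14944596 with 16.4. In eRBC the first were 20570258 to 20570625 with 16.4, 13508863 to 13509230 with 16.1 and 66422451 to 66422858 with 14.97. In aRBC they were 59317872 to 59318050 with 28.2 and rank 128, 36062956 to 36063126 with 25.9 and 926939 to 927149 with 22.4. In fibroblasts they were 53695858 to 53696117 with 9.05, 58133669 to 58133817 with 9.05 and 62473083 to 62473346 with 8.38, at ranks 595, 596 and 828.

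Around the 35 Mb edge of the stretch the nearest peak outside recurred in all 4 lists, while the nearest inside at 25 Mb and at 73 Mb differed between the lists. Around 35 Mb the nearest summit outside lay between 34965508 and 34965547 in all 4 lists, at percentiles of 86.4 in HD3, 96.5 in eRBC, 93.8 in aRBC and 86.4 in fibroblasts. The nearest inside had its summit between 35045560 and 35045627 in the erythroid lists, at percentiles of 2.80 in HD3, 36.8 in eRBC and 30.04 in aRBC, and at 35045893 in fibroblasts, at 84.5. Around 25 Mb the nearest summit outside lay between 25022321 and 25022325 in the erythroid lists, at 51.0, 83.9 and 65.9, and at 25090973 in fibroblasts, at 55.7. The nearest inside had 20.3 in HD3, 45.8 in eRBC, 78.03 in aRBC and 60.9 in fibroblasts. Around 73 Mb the nearest inside had percentiles of 93.1, 94.7, 64.5 and 19.9 in the order HD3, eRBC, aRBC and fibroblasts, and the nearest outside 20.3, 60.5, 54.6 and 30.8.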

How the data were processed

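ATAC-seq libraries were made from 150000 cells with 30 min of Tn5 treatment and 10 PCR cycles, per the labels' protocols. The submitters' processing notes name Bowtie2 2.3.5, SAMtools 1.9, MACS2 2.1.2 and GRCg6a, without roles. Each of the 4 deposited narrowPeak lists gives a fold enrichment (ratio) at the summit, a −log10 p-value and q-value, a display score and a summit offset, all by the authors. How the 2 samples of a cell type entered a list, the Tn5 offset and the read filters are not given in the sources used here. The peak names hold the digit 1 after the cell type in fibroblasts and 2 in the other lists, and whether this is a sample number is not stated.

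Density used 63 Mb for the Z stretch and the last peak end in any list for chromosomes 4 (91.3 Mb) and 5 (59.8 Mb). Peaks sharing at least 1 bp were merged into union regions. Intervals are exact (Poisson, Clopper-Pearson, conditional). Named peaks were the 3 strongest of each list alone and the 3 best worst ranks in regions of all 4, of the 3 erythroid, and of embryonic and adult lists. The densest window and the peaks at each bound were also named by rule. The members, the comparisons and the alternatives were chosen with earlier results of these data known. The annotation at hand was GRCg7b, a different build with Z genes up to 86044195, so peaks were not assigned to genes, and the planned motif and gene lists were not run. The code was tested on simulated lists. Software was matplotlib 3.10.9, SciPy 1.17.1, pandas 2.3.3, NumPy 2.4.6 and Python 3.11.15.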

Additional observations from a re-analysis of the deposited data

Results flagged for a closer look

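Values of the Z stretch minus those of chromosomes 4 and 5 went in opposite directions in different cell types in 3 measures. With 1 list per cell type none of these differences was tested. The median percentile of fold enrichment differed by -8.64 in HD3, by 4.84 in eRBC and by 6.86 in aRBC. In each of these lists the intervals of the medians on the Z stretch and on the autosomes overlapped. Ranked by −log10 p, the erythroid lists all went the same way, with -13.5 in HD3, -1.74 in eRBC and -5.69 in aRBC. The fibroblast difference was then 0.583. The opposite directions among the erythroid lists thus held for fold enrichment only. Where the other 3 lists all had a peak, the share of regions with a peak of the named list differed by -20.2 percentage points in HD3 and by 18.2 in fibroblasts. These HD3 and fibroblast counts have the same numerators and are not independent. The share of peaks overlapped by any other list differed by -11.3 percentage points in eRBC and by 16.4 in HD3.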

How the results depend on the processing

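No paired analysis was possible because the lists carry no replicate numbers, and with 1 list for each cell type no sample was left out in turn. Of 237 alternative values, 209 stayed within the 95% interval of the result, 24 lay outside it in the same direction or for a result with no clear direction, and 4 reversed. For differences in width, percentile and share, that interval holds the counting error of the Z stretch only, with the autosomal value taken as fixed. The HD3 density ratio of the Z stretch to chromosomes 4 and 5 was the lowest of the 4 lists in every alternative run, with 0.292 at a −log10 q from 10 upward. The causes were not tested.

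Of the reversed values, 3 were the odds ratio of eRBC to fibroblasts, at 1.04 against chromosomes 1 to 5, and, ranked by −log10 p, the difference in median percentile, at -1.74 in eRBC and -5.69 in aRBC. Counted per Mb, the ratio of regions of fibroblasts alone reversed to 0.887, against a ratio of shares of 1.29. That of eRBC alone was 1.09, of aRBC alone 0.75, of eRBC and aRBC 0.592, and of eRBC, aRBC and fibroblasts 2.02. At a −log10 q from 10 upward the HD3 density ratio was 0.292, its odds ratio to fibroblasts 0.329, its width difference 10 bp, its share at regions of the other 3 lists -28.8 points from the autosomes and its median window 2 peaks. The fibroblast rank difference was then 7.24 and the fibroblast median window 4 peaks. Against chromosome 4 alone the density ratio was 0.872 in eRBC, 0.769 in aRBC and 0.944 in fibroblasts, and against chromosome 5 alone 0.601, 0.546 and 0.733. Against chromosomes 1 to 5 the eRBC density ratio was 0.872, the aRBC rank difference 12.4, the difference in aRBC peaks overlapped by another list 3.68 points and that in regions of 1 list 0.822 points. By covered bases the aRBC density ratio was 0.581. In lists of equal length the fibroblast width difference was 14 bp and the fibroblast median window 8 peaks.

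Depth is unknown, so how far a missing peak reflects few reads cannot be told from these lists.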
